A study of Mus musculus with 12 samples.

Results

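The genes described here encode the main phase II conjugation enzymes of the mouse. They are the cytosolic and kappa class glutathione S-transferases (GST), the UDP-glucuronosyltransferases of families 1 to 3 (UGT) and the sulfotransferases of families 1 to 5 (SULT). They were picked by symbol (Gsta, Gstk, Gstm, Gsto, Gstp, Gstt and Gstz genes, Ugt1 to Ugt3 genes, Sult1 to Sult5 genes) from a table of 22276 gene symbols, in which 57 symbols matched, and a gene was kept when it reached at least 1 FPKM in any of 12 libraries. FPKM (fragments counted per length of transcript and per size of the library) is a level per length, so levels of different genes can be set side by side. The rule kept 44 genes, of which 20 of 21 were GST, 17 of 20 UGT and 7 of 16 SULT genes. Just inside the limit lay Ugt2a2, with a highest value of 1.10 FPKM, and Sult2a7 with 2.31. Just outside lay Ugt1a10 with 0.715 FPKM, Ugt1a2 with 0.713, Gstt4 with 0.434 and Sult4a1 with 0.372.

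Total RNA was sequenced from white fat (WAT), brown fat (BAT), liver and skeletal muscle (the quadriceps, in the study's account) of male C57BL/6J mice. NCD-veh mice ate a normal chow diet and received vehicle. HFD-veh mice ate a high-fat diet from 8 to 17 weeks of age and received vehicle. HFD-ncls mice ate the same high-fat diet and received narciclasine (ncls), a plant alkaloid, by weekly gavage from 10 to 17 weeks of age. All mice were 17 weeks old at collection. Where 3 values follow each other without names, they are for NCD-veh, then HFD-veh, then HFD-ncls. Each of the 12 combinations of organ and group was 1 library, and the number of mice behind a library is not given in the sources used here. With no replicates there is no estimate of the spread between animals and no test, so each difference below is a difference between 2 libraries, described by its size beside the size of the differences of all genes. Libraries held approximately 18600000 to 26200000 fragments, estimated from the value of a single fragment in lowly expressed genes. Between 9130 and 12052 genes reached 1 FPKM in a library. The organ labels matched their markers in each group: summed hepatocyte markers were at 71522 to 82488 FPKM in liver, fast-twitch muscle markers at 109547 to 113825 in muscle, brown adipocyte markers at 8225 to 10118 in BAT and adipocyte markers at 16730 to 27025 in WAT. A small amount of liver transcripts was present in HFD-veh muscle, and its size is given with the muscle results.

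Phase II enzymes attach a polar group to drugs, hormones, bile pigments and products of lipid peroxidation, which makes them more soluble and easier to excrete. GSTs add glutathione, UGTs add glucuronic acid taken from UDP-glucuronic acid, and SULTs add sulfate taken from the donor PAPS. The liver is the best known site of all these reactions, and the encoding genes are controlled there by liver-enriched factors such as HNF1 and by sensors such as NRF2, the aryl hydrocarbon receptor, PXR and CAR.

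The Ugt1a genes share a large part of their coding sequence, and this bears on how far their values can be told apart. In the GENCODE annotation of the mm9 genome, which is the build that was used to make the table, 9 Ugt1a genes with a full coding transcript each had 5 coding exons, of which 4 were shared by all. The shared coding exons lay at chr1:90111619-90114996 on the plus strand and made up 735 bases, or 45.8% to 46.4% of each coding sequence. The separate first coding exons lay between chr1:89952057 and 90109446, in the order Ugt1a10, Ugt1a9, Ugt1a8, Ugt1a7c, Ugt1a6b, Ugt1a6a, Ugt1a5, Ugt1a2 and Ugt1a1. Reads from a first exon, or joining it to the shared part, can be assigned to 1 gene. The first coding exons of Ugt1a6a and Ugt1a6b differed at only 26 of 858 bases (97% identity), so the split between these genes is uncertain. Each first exon has its own promoter. RefSeq promoters (GRCm38.p6 build, the 250 bases before the annotated start) are shown for 3 Ugt1a genes that were expressed in liver and for Ugt1a7c, which was expressed in WAT and hardly in liver. Capitals mark the HNF1 half-site, searched as GTTAAT or its reverse complement ATTAAC. This motif was chosen after the values had been seen.
Ugt1a1 (chr1:88211709-88211958, plus strand): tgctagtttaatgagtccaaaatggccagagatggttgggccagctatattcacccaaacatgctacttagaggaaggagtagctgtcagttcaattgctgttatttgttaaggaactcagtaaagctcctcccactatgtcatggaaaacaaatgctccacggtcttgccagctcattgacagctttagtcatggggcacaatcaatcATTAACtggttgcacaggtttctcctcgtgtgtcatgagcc
Ugt1a9 (chr1:88070529-88070778, plus strand): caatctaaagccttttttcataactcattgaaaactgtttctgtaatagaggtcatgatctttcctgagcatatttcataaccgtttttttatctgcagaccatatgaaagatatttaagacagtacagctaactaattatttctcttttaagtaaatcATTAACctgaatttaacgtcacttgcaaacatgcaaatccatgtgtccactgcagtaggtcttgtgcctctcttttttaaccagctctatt
Ugt1a6a (chr1:88134559-88134808, plus strand): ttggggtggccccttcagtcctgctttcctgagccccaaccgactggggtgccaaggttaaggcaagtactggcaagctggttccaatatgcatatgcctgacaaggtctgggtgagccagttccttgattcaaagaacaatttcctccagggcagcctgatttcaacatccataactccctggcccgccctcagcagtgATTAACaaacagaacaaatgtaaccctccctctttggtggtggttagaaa
Ugt1a7c (chr1:88094751-88095000, plus strand): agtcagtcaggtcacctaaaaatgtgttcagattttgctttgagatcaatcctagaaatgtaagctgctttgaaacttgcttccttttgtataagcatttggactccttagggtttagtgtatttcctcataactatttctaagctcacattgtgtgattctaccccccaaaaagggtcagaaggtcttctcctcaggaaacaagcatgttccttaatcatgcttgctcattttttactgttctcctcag

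The half-site began 41 bases before the start in Ugt1a1, 91 in Ugt1a9 and 50 in Ugt1a6a, and its letters were not found in the window of Ugt1a7c. The half-site did not follow the liver levels: it was absent from the window of Ugt1a5, which reached 19.6 FPKM in liver, and present in that of Ugt1a10, which did not reach 1 FPKM in any library. A promoter was matched for 39 of the 44 genes. The half-site was present in 8 of these 39 promoters (20.5%), 5 of them among the 15 matched UGT promoters, and in 7.49% of 27025 promoters of all genes. The antioxidant response element core (TGACNNNGC, or GCNNNGTCA on the other strand) was present in 7.69% of member promoters (Gsta3, Gstm5 and Gstm7) and in 11.5% of all promoters. The dioxin response element core (GCGTG, or CACGC on the other strand) was present in 17.9% of member promoters and in 30.9% of all promoters. These matches describe letters in a short window and do not show that a factor binds there.

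Some other genes were also summed as near-identical in an alternative below. They were Gsta1 with Gsta2, the Sult2a genes, Ugt2b5 with Ugt2b37 and Ugt2b38, and the Ugt3a genes. Another pair that the files could split only with difficulty was Gstp1 (chr19:4035411-4037921, mm9) and Gstp2 (chr19:4040291-4042221), neighbouring pi class GST genes on the minus strand. Their coding sequences of 633 bases differed at 12 bases (98.1% identity), with an identical run of 303 bases. The first 90 coding bases, with the 6 differing positions in capitals, show how little sequence separates them.
Gstp1: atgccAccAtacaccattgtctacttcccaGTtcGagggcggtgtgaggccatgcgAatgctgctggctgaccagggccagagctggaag
Gstp2: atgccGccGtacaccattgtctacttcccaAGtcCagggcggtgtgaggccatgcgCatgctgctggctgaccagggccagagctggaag

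Most of the 44 genes had their highest mean level in liver. This held for 38 genes, comprising 16 of 20 GST, 16 of 17 UGT and 6 of 7 SULT genes. Some of them were kept only because they reached 1 FPKM in liver, which raises this count. The share of all genes that were highest in liver is not given here. For Gsta4, Gstz1 and Gstt2 the liver mean was only 1.01, 1.07 and 1.17 times that of the next organ. The families differed in how far they were also present elsewhere. Of the 20 GST genes, 17 reached 1 FPKM in all 3 libraries of WAT, 16 in BAT, 19 in liver and 13 in muscle. Of the 17 UGT genes, 15 did so in liver, 3 in WAT, 1 in BAT and 0 in muscle. Of the 7 SULT genes, 5 did so in liver, 3 in WAT, 1 in BAT and 1 in muscle. GST genes were thus the broadly expressed family, whereas UGT genes were mostly near or at 0 outside liver. The summed FPKM of the 44 genes was 7071 to 8084 in liver, 1416 to 1658 in WAT, 694 to 836 in BAT and 473 to 600 in muscle.

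**Figure D1:**
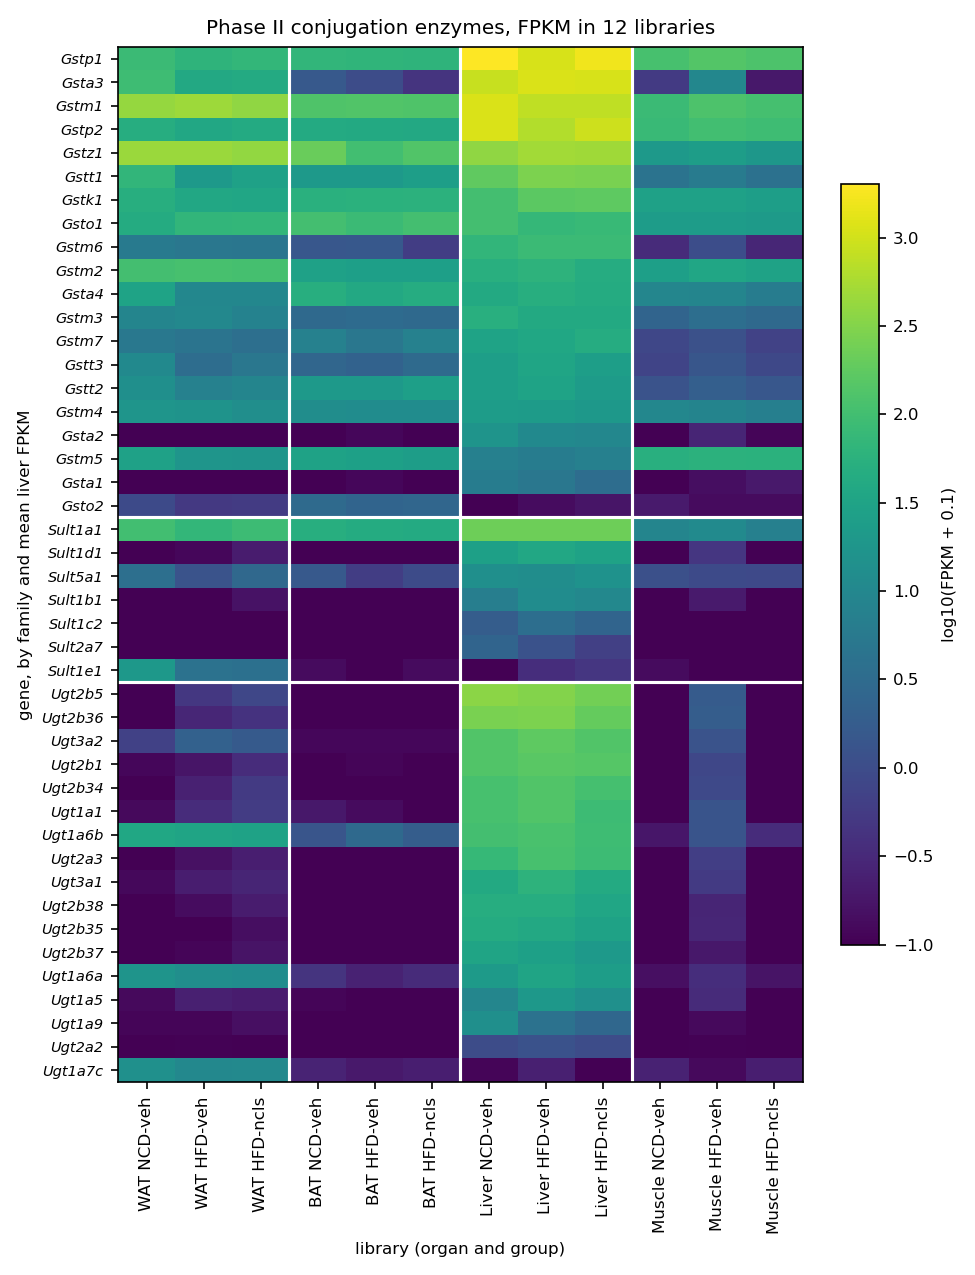
Levels of the 44 phase II genes (rows, grouped by family and ordered by mean liver FPKM) in the 12 libraries (columns), coloured by log10(FPKM + 0.1). GST genes were present in all organs, UGT genes mainly in the 3 liver libraries, and low UGT levels appeared in HFD-veh muscle.

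Among the GST genes, Gstp1 of the pi class had the highest liver mean. Gstp1 was at 2005 FPKM in NCD-veh liver, 1121 after HFD-veh and 1644 after HFD-ncls, and Gstp2 at 1129, 630 and 933. The ratio of Gstp1 to Gstp2 was between 1.76 and 1.78 in the 3 liver libraries, 1.66 to 1.77 in WAT, 1.60 to 1.62 in BAT and near 1.38 in muscle. By its liver mean Gstp1 (1590 FPKM) was followed by Gsta3 (1046), Gstm1 (912), Gstp2 (897) and Gstz1 (467). Gsta3 (chr1:21230670-21255442, mm9), an alpha class GST, was at 857 to 1161 FPKM in liver and Gstm1 (chr3:107815173-107820891), a mu class GST, at 778 to 1166. Gstz1, which also acts in tyrosine breakdown as maleylacetoacetate isomerase, was at 391 to 513 FPKM in liver and at a similar level in WAT (410 to 451).

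Gstz1 and Gstm1 were the leading members in both fat depots. Mean Gstz1 was 435 FPKM in WAT and 148 in BAT, and mean Gstm1 was 420 in WAT and 134 in BAT. WAT came next with Gstm2 (107 FPKM), Sult1a1 (86.3), a phenol sulfotransferase, and Gstp1 (73.0). BAT came next with Gsto1 (97.2), an omega class GST, Gstp1 (65.7) and the mitochondrial and peroxisomal Gstk1 (56.0). In muscle the order was Gstp1 (127), Gstm1 (106), Gstp2 (91.9), Gstm5 (55.4) and Gstm2 (30.6), all of them GST genes.

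A few genes were highest outside liver. Gstm5 (chr3:107698739-107701604), the mu class gene on the opposite strand from the rest of its cluster, was at 51.7, 58.7 and 55.8 FPKM in muscle and at 6.33 to 7.50 in liver, a mean 7.81 times that of liver. The muscle and liver values did not overlap, and the BAT mean (27.5 FPKM) and WAT mean (20.7) lay between them. Gstm2 was at 102 to 113 FPKM in WAT and 46.1 to 59.5 in liver, again without overlap. Gsto2, whose product also reduces dehydroascorbate, was at 2.29 to 3.03 FPKM in BAT, 0.427 to 0.831 in WAT and at most 0.0742 in liver. Gsto1, the neighbouring gene of Gsto2, had its highest mean in BAT too, but its values there (84.5 to 105 FPKM) overlapped those of liver (73.1 to 102).

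Sult1e1 (chr5:88004993-88020636, mm9), the estrogen sulfotransferase, was a WAT gene in these libraries. Its WAT level was 19.3 FPKM with NCD-veh, 4.05 with HFD-veh and 3.75 with HFD-ncls, against 0, 0.270 and 0.370 in liver. In BAT and muscle it did not exceed 0.0348 FPKM. The other SULT genes had their highest mean in liver. Sult1a1 was also abundant elsewhere (means of 86.3 FPKM in WAT, 45.2 in BAT and 9.17 in muscle), and Sult1c2 and Sult2a7 were listed at 0 in all 9 libraries from other organs.

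The Ugt1a genes divided between liver and WAT by first exon. Ugt1a1, the bilirubin-conjugating enzyme, was at 111, 134 and 88.1 FPKM in liver and at 0.0286, 0.254 and 0.484 in WAT. Ugt1a7c was its opposite, with 14.3, 10.2 and 10.7 FPKM in WAT and 0.0149, 0.142 and 3.51e-07 in liver. Ugt1a6a and Ugt1a6b, the phenol-conjugating forms, were present in both organs: Ugt1a6b was at 30.3 to 36.7 FPKM in WAT and 93.9 to 115 in liver, and Ugt1a6a at 12.1 to 16.8 and 22.1 to 32.3. Ugt1a5 (9.30 to 19.6 FPKM) and Ugt1a9 (2.63 to 13.6) were above 1 FPKM in liver only, and in WAT they did not exceed 0.143. Values such as 3.51e-07 are far below what a single fragment is worth at this depth.

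**Figure D2:**
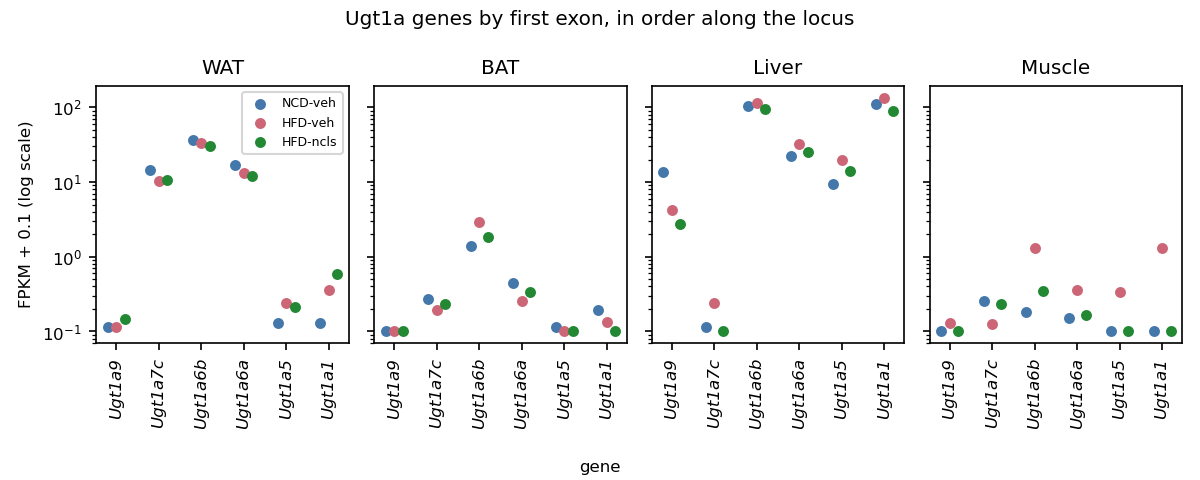
FPKM + 0.1 on a log scale for the 6 Ugt1a members in the order of their first exons along the locus, with 1 point per library, coloured by group, in WAT, BAT, liver and muscle. Ugt1a1, Ugt1a5 and Ugt1a9 stood high in liver, Ugt1a7c in WAT (10.2 to 14.3 FPKM), and the Ugt1a6 genes in both.

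The remaining UGT genes were liver genes with little elsewhere. The summed level of the 9 Ugt2 members, most of which lie in a cluster on chromosome 5 and act on steroids and bile acids, was 1084, 1115 and 870 FPKM in liver and did not exceed 2.10 in WAT or 0.0156 in BAT. Ugt2b5 was the leading UGT gene with a liver mean of 304 FPKM, followed by Ugt2b36 with 250. Ugt3a1 and Ugt3a2, which use sugar donors other than UDP-glucuronic acid, summed to 176 to 233 FPKM in liver.

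In WAT, the high-fat diet went with lower levels of several GST and SULT genes. On the log2(FPKM + 0.1) scale, used for all fold values, which understates the change of low genes, 24 genes had at least 1 FPKM in 1 of the 2 libraries. Of these, 6 were over 2-fold lower in HFD-veh than in NCD-veh WAT (3.87% of all 12208 genes tested) and 1 was over 2-fold higher (5.24% of all genes). The median log2 difference was −0.36 for the 24 genes and 0.03 for all genes. Over all 44 members, including those near 0 in both libraries, the median was 0.00. The 6 lower genes were 4 GST genes and 2 SULT genes.

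Gsta4, which conjugates 4-hydroxynonenal and other lipid peroxidation products, was at 31.4 FPKM with NCD-veh, 9.68 with HFD-veh and 9.52 with HFD-ncls (log2 difference of HFD-veh from NCD-veh −1.69). Gsta3 was at 91.6, 38.7 and 43.2 FPKM in the same order (−1.24). In both genes the HFD libraries lay together and apart from NCD-veh. The theta class genes Gstt1 (67.0, 21.1 and 29.4 FPKM; −1.66) and Gstt3 (10.9, 3.35 and 4.89 FPKM; −1.67), which are neighbours on chromosome 10, had the same order, with HFD-ncls slightly above HFD-veh. Gstt2 was at 13.6, 7.53 and 8.83 FPKM, short of 2-fold. Sult1e1 had the largest difference of the 24 genes (−2.23), with the values given above. Sult5a1 was at 3.62, 1.18 and 2.69 FPKM (−1.54).

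Of the 17 GST genes tested in WAT, 12 were below their NCD-veh level in HFD-veh, where 47.3% of all genes were below theirs. Besides the genes above, Gstm5 was at 28.4, 17.1 and 16.6 FPKM (−0.73), and Gstp1 (−0.41), Gstk1 (−0.36) and Gstp2 (−0.32) were lower by less. The other abundant GST genes differed little or were higher. Gstm1 was at 414, 461 and 385 FPKM, Gstm2 at 102, 113 and 107, and Gstz1 at 444, 451 and 410. Gsto1 went the other way, at 43.9, 67.7 and 69.9 FPKM, a log2 difference of 0.62. The 1 gene over 2-fold higher was Ugt3a2, at 0.572, 2.05 and 1.53 FPKM.

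Markers of the cell types of WAT moved with these differences. The summed FPKM of 4 mesothelium markers was 172, 67.3 and 73.4, with 4 of 4 lower after HFD. Summed adipocyte markers were at 27025, 18080 and 16730 (7 of 8 lower). Most of this drop was Cfd, at 8163, 653 and 753 FPKM, the only 1 of the 8 over 2-fold lower with HFD. Lep, the 1 higher marker, was at 300.2, 1198.5 and 1061.5. Macrophage markers summed to 639, 877 and 1102 (5 of 6 higher). Of 6 epididymis markers, 5 (Lcn5, Lcn8, Crisp1, Adam7 and Spint4) were at 0, and the summed level was 0.103 to 0.133. In bulk tissue, fewer cells of a type and less RNA per cell cannot be told apart, and the part of cell makeup in these differences was not tested.

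In HFD-ncls WAT most members lay near their HFD-veh levels. Of 24 genes, 1 was over 2-fold higher with ncls than with vehicle under HFD (1.49% of 12152 genes) and 0 were over 2-fold lower (0.214% of all genes). The higher gene was Sult5a1 (log2 difference 1.13), which stood at 2.69 FPKM in HFD-ncls and still below the NCD-veh value. Against NCD-veh WAT, which is the same NCD-veh library as above, 5 genes of 24 were over 2-fold lower in HFD-ncls WAT (2.48% of 12357 genes) and 1 was over 2-fold higher (7.11%).

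**Figure D3:**
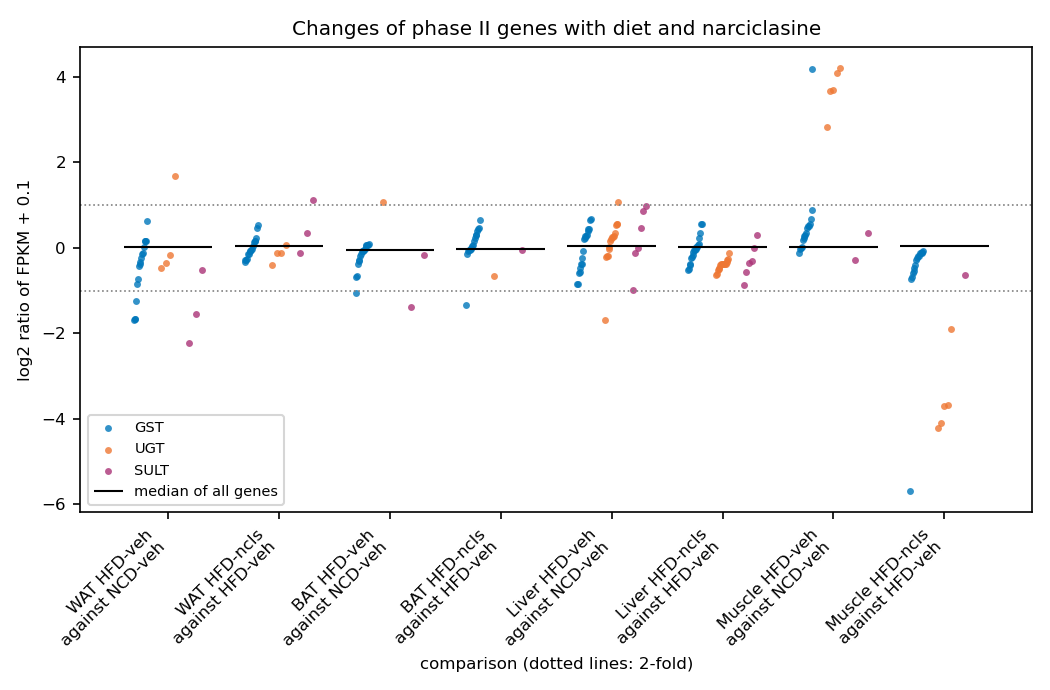
Log2 difference on the FPKM + 0.1 scale (y axis) of each member tested in the 8 comparisons (x axis), coloured by family, with black bars at the median of all genes and dotted lines at 2-fold. Most WAT members lay below the all-gene median with HFD, UGT genes of liver lay below it with ncls, and the UGT genes of muscle went up to 4.21 with HFD and down to −4.21 with ncls.

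In BAT, few members differed. Of 21 genes tested, 1 was over 2-fold higher in HFD-veh than in NCD-veh (2.28% of 10443 genes) and 2 were over 2-fold lower (2.01% of all genes). Gstz1 was at 207, 100 and 138 FPKM in BAT, a log2 difference of −1.05 with HFD. This made it the only abundant member past 2-fold there. Sult5a1 was at 1.47, 0.498 and 0.844 FPKM, and Ugt1a6b, the higher gene, at 1.27, 2.80 and 1.73. The latter value depends on the uncertain split from Ugt1a6a, which was at 0.343, 0.158 and 0.239. In HFD-ncls against HFD-veh BAT, 0 of 19 genes were over 2-fold higher (0.261% of 10329 genes) and 1 was over 2-fold lower (1.7% of all genes), Gstm6, at 1.37, 1.43 and 0.503 FPKM. The libraries of BAT also differed in fast-twitch muscle markers, which summed to 2205, 912 and 131 FPKM (12 of 12 lower at each step), and their part in the differences was not tested.

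In liver, the order of the leading members differed between diets. Of 41 genes tested, 1 was over 2-fold higher in HFD-veh than in NCD-veh liver (2.86% of 10016 genes) and 1 was over 2-fold lower (2.27% of all genes), shares close to those of all genes. Gstp1 was the leading member in NCD-veh liver at 2005 FPKM and stood behind Gsta3 in HFD-veh liver, with 1121 FPKM against 1161 for Gsta3. With ncls Gstp1 was again ahead, at 1644 against 1119 FPKM. The pi class sum was 3134, 1751 and 2577 FPKM, so HFD-ncls lay between the other libraries. This sum does not depend on how reads were divided between Gstp1 and Gstp2. The order of Gstp1 and Gsta3 can depend on it, and in HFD-veh liver their levels lay close together.

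Other GST classes had other orders. The alpha class sum was 921, 1227 and 1176 FPKM, and the theta class sum 233, 355 and 318. The mu class sum was 1400, 1042 and 1024 FPKM, following Gstm1 (1166, 792 and 778). In these classes HFD-ncls stayed near HFD-veh.

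The liver genes past 2-fold with HFD were both Ugt1a genes, and they went in opposite directions. Ugt1a5 was at 9.30, 19.6 and 14.1 FPKM, and Ugt1a9 at 13.6, 4.15 and 2.63. Ugt1a9 was thus lower at each step, and its log2 difference with HFD was −1.69. Among the SULT genes, Sult1b1, which acts on thyroid hormones, was at 6.77, 12.5 and 10.1 FPKM, short of 2-fold, and the low Sult2a7 at 2.31, 1.12 and 0.564.

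With ncls, the UGT genes of HFD liver were lower as a family. None of the 41 members was past 2-fold in HFD-ncls against HFD-veh liver, where 1% of 9956 genes were over 2-fold higher and 1.31% over 2-fold lower. All 16 UGT genes tested were below their HFD-veh level, with a median log2 difference of −0.38 and a range of −0.64 to −0.11, while 47.6% of all genes were below 0 and the median of all genes was 0.02. The 1.4-fold limit was passed by 8 members in the lower direction (8.07% of all genes) and 2 in the higher (6.88% of all genes). The lower genes included the UGT genes Ugt1a1, Ugt1a9, Ugt2b36 and Ugt3a1, and the higher genes were Gstp1 and Gstp2. These 16 genes share 1 pair of libraries, and several share exons or near-identical sequence, so their common direction is not 16 independent observations.

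The sizes were modest. Ugt1a1 was at 111, 134 and 88.1 FPKM, as above, Ugt2b36 at 274, 279 and 195, and Ugt2b5 at 355, 314 and 244. In these 3 genes HFD-ncls was the lowest library. In Ugt3a2 it was close to NCD-veh instead, at 137, 174 and 134 FPKM. The UGT sum of liver was 1520, 1654 and 1270 FPKM. Between HFD-veh and NCD-veh liver, 11 of 16 UGT genes were above their NCD-veh level, and the median log2 difference was 0.22. Of all 10016 genes tested there, 5411 were above theirs, with a median of 0.04. Summed fast-twitch muscle markers were at 2.20, 71.0 and 3.17 FPKM in liver, and hepatocyte markers at 82488, 71522 and 77044, and their part in these differences was not tested.

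**Figure D4:**
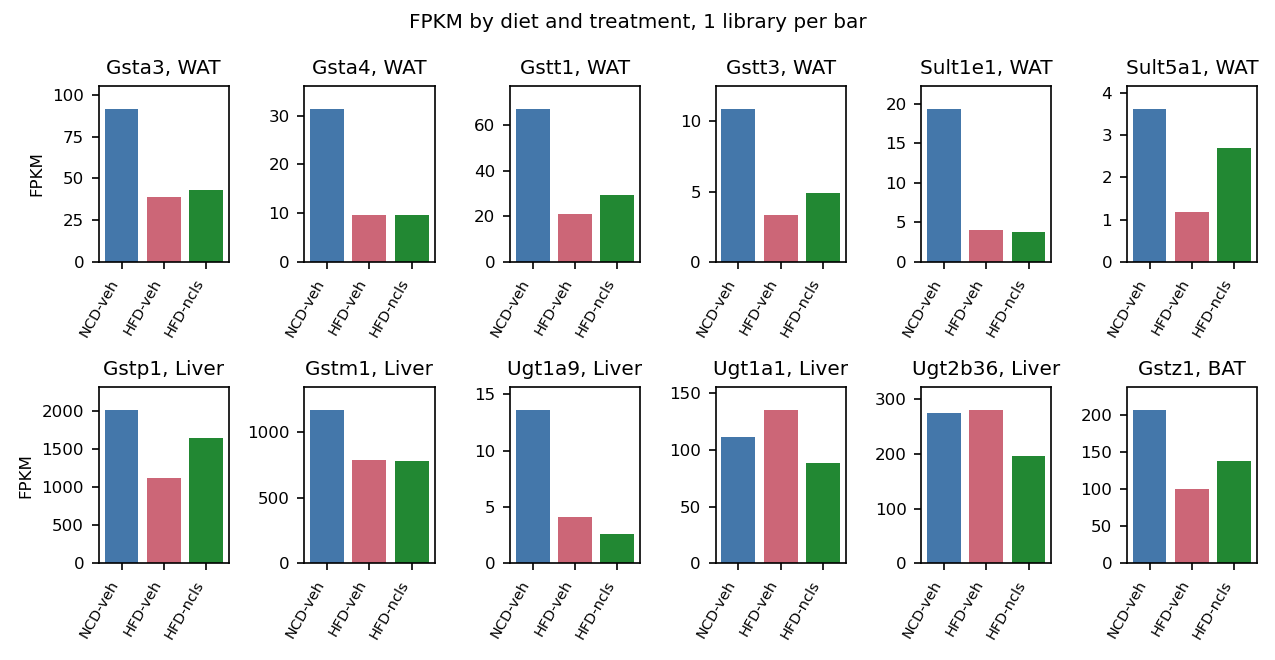
FPKM of 12 gene and organ pairs (bars, 1 library each, y axes from 0) by group. The 6 WAT genes shown were lower with HFD and stayed low with ncls except Sult5a1, liver Gstp1 lay between with ncls (1644 FPKM), and liver Ugt1a9, Ugt1a1 and Ugt2b36 were lowest with ncls.

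In muscle, 6 of 23 members were over 2-fold higher in HFD-veh than in NCD-veh (3.14% of 9585 genes) and 0 were over 2-fold lower (0.97% of all genes). With ncls the pattern turned over, and 0 of 22 were over 2-fold higher with ncls than with vehicle under HFD (1.27% of 9694 genes) and 6 were over 2-fold lower (2.53% of all genes). Both comparisons used the same HFD-veh library, and the 6 genes were the same ones, Gsta3 and 5 UGT genes. Each of the 6 reached 1 FPKM in muscle only in that library. The limit for testing thus fixed their direction in both comparisons, and the 2 counts are not separate results. Between HFD-ncls and NCD-veh muscle, where the HFD-veh library is left out, 0 of 15 members were past 2-fold. Of 9514 genes, 0.893% were higher and 0.315% lower. The 6 genes were under 1 FPKM in both of these libraries and so were not among the 15, and this count says nothing about them.

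Gsta3 was at 0.447 FPKM with NCD-veh, 9.83 with HFD-veh and 0.0928 with HFD-ncls. Ugt2b36 was at 1.75 FPKM in HFD-veh muscle, Ugt2b5 at 1.60 and Ugt3a2 at 1.17, and all 3 were listed at 0 in NCD-veh and HFD-ncls muscle. Ugt1a1 was at 1.19 FPKM in HFD-veh muscle and below 0.001 in the other muscle libraries, and Ugt1a6b at 0.0844, 1.21 and 0.253. In each case HFD-veh stood alone, and the genes are those with high liver levels.

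The HFD-veh muscle library also held more transcripts of liver-enriched genes than the other muscle libraries. Over 562 liver-enriched genes that are no members, the median level was 0.700% of that in HFD-veh liver (quartiles 0.535% and 1.05%), against 0.0160% in NCD-veh and 0.0141% in HFD-ncls muscle. All 23 hepatocyte markers with values were over 2-fold higher in HFD-veh than in NCD-veh muscle, and their sum was 27.5, 480 and 18.6 FPKM. The markers Apoc3, Fgb, Kng1, C8a and Tdo2 were at 0 in NCD-veh muscle and 0 of the 23 were at 0 in HFD-veh muscle. The 14 liver-enriched UGT members stood at a median of 0.605% of their liver level in HFD-veh muscle (0.313% to 1.23%), and 10 of them were at 0 in each of the other muscle libraries. Gsta3 stood at 0.847% of its liver level. Over all 20 liver-enriched members the share ranged from 0.313% to 16.0%. The source of these transcripts was not tested.

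The subtraction that follows uses 1 share for all genes and is an approximation. After 0.700% of the liver level was subtracted in HFD-veh muscle, and the corresponding median in the other libraries, only Gsta3 remained past 2-fold of 17 members tested with HFD and of 16 tested with ncls. Its value in HFD-veh muscle was then 1.70 FPKM. The 5 UGT genes were below 1 FPKM in each muscle library and were no longer tested. The GST genes that are abundant in muscle hardly moved with the subtraction: Gstm5 was at 51.7, 58.6 and 55.8 FPKM, and Gstp1 at 113, 131 and 127. The same subtraction in WAT left the 6 lower genes and Ugt3a2 past 2-fold with HFD and Sult5a1 with ncls.

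**Figure D5:**
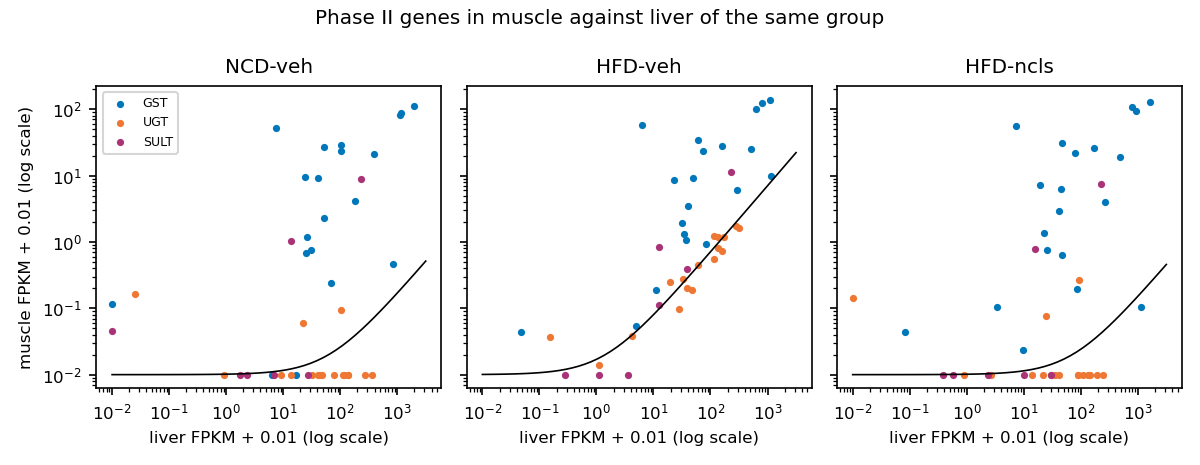
Muscle FPKM + 0.01 against liver FPKM + 0.01 of the same group, both on log scales, for the 44 genes, 1 panel per group, coloured by family. The line is the median share of liver-enriched non-members (0.700% in HFD-veh), and the UGT genes lay along it in HFD-veh and at or near 0 in the other groups.

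The WAT libraries had smaller shares of this kind, at medians of 0.116%, 0.227% and 0.490% of the liver level. The 14 liver-enriched UGT members stood at medians of 0.00680%, 0.118% and 0.360% of liver in the same order. Of 23 hepatocyte markers, 20 were higher in HFD-veh than in NCD-veh WAT, and 22 were higher with ncls than with vehicle under HFD, although their summed FPKM, carried by Trf and Cyp2e1, was 2267, 972 and 1060. Ugt2b5 was listed at 0 in NCD-veh WAT and at 0.400 and 0.728 FPKM with HFD. Other low UGT genes had another order, with Ugt1a5 at 0.0290, 0.143 and 0.114 FPKM in WAT and Ugt3a2, as above, highest in HFD-veh.

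Genes that supply the cosubstrates, regulate the enzymes or act beside them were read from a list of 52. In WAT 5 of 36 tested were over 2-fold higher in HFD-veh than in NCD-veh (5.24% of all genes) and 2 were over 2-fold lower (3.87% of all genes), the latter a share near that of all genes. The higher genes were Slc7a11, the cystine importer that feeds glutathione synthesis (5.17, 13.3 and 11.7 FPKM), Hmox1, heme oxygenase (19.8, 60.2 and 75.5), Hpgds, Ephx1 and Gusb. The lower genes were Inmt and Nr1h4. Slc7a11 and Hmox1 thus stood higher in the WAT libraries in which Gsta3, Gsta4 and Gstt1 stood lower. Their lists were mixed. With HFD, Gsr (log2 difference −0.33), Nqo1 (−0.26), Nfe2l2 (−0.08), Gclc (−0.05) and Keap1 (−0.03) were lower, and the rest of both lists was higher. The medians were 0.36 for glutathione supply and redox genes and 0.16 for NRF2 pathway genes.

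In liver 1 of 47 was over 2-fold lower with HFD (2.27% of all genes) and 0 were higher (2.86% of all genes), which is no more than in all genes. The lower gene was Cyp3a11, a PXR target among the phase I oxidases, at 1165, 330 and 177 FPKM, the same order as Ugt1a9. With ncls 1 gene was over 2-fold higher (Onecut1, a liver transcription factor) and 1 lower (Cyp2b10, a CAR target), beside 1% and 1.31% of all genes. Short of 2-fold, Ugdh, which makes UDP-glucuronic acid, was at 44.4, 50.2 and 37.5 FPKM, Ugp2, which makes its precursor, at 65.2, 119 and 77.8, and Abcc2, the canalicular exporter of conjugates, at 53.7, 55.1 and 31.1. Gclc, the rate-limiting enzyme of glutathione synthesis, was at 81.9, 47.9 and 32.2 FPKM. These 4 genes, a selection from the list, were lower with ncls than with vehicle under HFD. Of the other suppliers of cosubstrates, Gclm, listed with Gclc, was also lower in the same comparison (log2 difference −0.39). Gss (−0.06), Papss2 (−0.05) and Ggct (−0.015) were barely lower. Slightly higher were Slc35d1 (0.09), listed with Ugdh and Ugp2, Slc26a1 (0.10), Papss1 (0.17) and Gsr (0.01). The median over the 47 genes was −0.16. Whether the supply genes moved together with the UGT genes was not tested.

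In BAT 2 of 34 were over 2-fold lower with HFD (Gnmt and Cyp1a1), beside 2.01% of all genes, and 0 were higher, beside 2.28%. With ncls 1 of 33 was over 2-fold higher, beside 0.261% of all genes. This was Cyp1a1, the best known target of the aryl hydrocarbon receptor, at 3.36, 0.719 and 27.5 FPKM. Of the members known as targets of the same receptor, Ugt1a6b was at 2.80 FPKM in HFD-veh BAT and 1.73 with ncls. Ugt1a6a, from which the split of Ugt1a6b is uncertain, went the other way, at 0.16 and 0.24. Gsta1 did not exceed 0.0186 FPKM in all BAT libraries. Of the other receptor targets in the list, Tiparp was at 7.36 FPKM in HFD-veh BAT and 8.89 with ncls, and Cyp1a2 at 0.0542 and 0.369. In muscle 6 of 32 were over 2-fold higher with HFD (3.14% of all genes) and 6 were over 2-fold lower with ncls (2.53% of all genes). Mgst1, Cyp1a2, Cyp3a11, Glyat and Gnmt were among both, and their liver levels ranged from 141 to 2962 FPKM. Of these, Mgst1 was also well present in the other muscle libraries, at 13.6, 36.6 and 10.6 FPKM in muscle.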

How the data were processed

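The authors mapped the reads to mm9 by TopHat, and the deposited FPKM values per gene symbol were computed by Cufflinks on RefSeq genes. The Cufflinks version and the handling of reads shared by near-identical genes are not given in the sources used here. Values were used as deposited, without rescaling. The 12 columns were assigned to organ and group by the labels' titles, with 1 library per group, so 2-library differences were described and not tested. Organ means and ranges over 3 libraries span groups and are no replicate error.

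Differences were computed as log2(FPKM + 0.1) for genes with at least 1 FPKM in 1 of the 2 libraries. The limits of 2-fold and 1.4-fold were set against the share of all genes past them. The script was tested on simulated data. Approximate depth came from the FPKM steps of 150 to 200 single-transcript genes per library, with lengths from GENCODE. At this depth, levels under 0.1 FPKM rest on few fragments. The 86 symbols lacking a value in some library were not tested there, which touched 0 members. Liver-enriched genes had a liver mean of at least 10 FPKM that was 20 times or more their median over the 9 remaining libraries.

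Genes named were the 5 highest members per organ, up to 5 in each direction per comparison among those past 2-fold, those at least 2 times higher outside liver, and those under 0.001 FPKM in 1 library and over 1 in another of the organ; members of classes named beside them were chosen after their values were seen. The members and gene lists were chosen with earlier results of these data known. Promoters were from RefSeq (GRCm38.p6), and Gstp and Ugt1a sequences from the mm9 genome with GENCODE. Alternatives were a pseudocount of 1, no filter, a filter of 5 FPKM, rescaling by the median ratio, near-identical members summed and, for WAT and muscle, the liver share subtracted. Computations ran in Python 3.11.15 with pandas 2.3.3 and numpy 2.4.6, and figures were drawn with matplotlib 3.10.9.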

Additional observations from a re-analysis of the deposited data

Results flagged for a closer look

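Gsta3 went in opposite directions with the high-fat diet in muscle and WAT. Its log2 difference of HFD-veh from NCD-veh was 4.18 in muscle and −1.24 in WAT, each from 1 pair of libraries, and the difference between the organs was not tested. The muscle value moved with the liver transcripts of the HFD-veh muscle library, whose median share was 0.700% of the liver level, against 0.847% for Gsta3. After that share was subtracted, Gsta3 in HFD-veh muscle was 1.70 FPKM.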

How the results depend on the processing

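No paired analysis was possible because each group had 1 library in an organ, and no library could be left out of a group. The cause of a shift was not tested except where the alternative itself removes genes. With a pseudocount of 1, the counts over 2-fold higher became 0 for HFD in WAT, BAT and liver and 0 for ncls in WAT, and the counts over 2-fold lower became 1 for HFD and 0 for ncls in BAT. Without a filter on FPKM, all 57 matching symbols were counted, also those outside the 44 members, such as Sult4a1 in WAT and Gstt4 in BAT. The counts higher with HFD became 6 in WAT, 2 in BAT, 3 in liver and 18 in muscle, and the count higher with ncls in WAT became 2. The counts lower then became 3 in BAT, 1 in liver and 18 in muscle with ncls, and 1 in muscle with HFD. With a filter of 5 FPKM, which tests fewer genes, the counts higher became 0 for HFD in WAT and BAT, 0 for ncls in WAT and 1 for HFD in muscle. The counts lower became 1 for HFD and 0 for ncls in BAT and 1 for ncls in muscle, and 1 member had its highest mean in BAT. With near-identical members summed, the counts higher with HFD became 0 in BAT and liver. Rescaling by the median ratio gave 2 lower with HFD in liver. Subtracting the liver share left 1 in muscle for HFD and 1 for ncls. With NCD-veh in place of HFD-veh, an alternative added after the data had been seen, the counts lower in HFD-ncls became 5 in WAT and 0 in muscle. The genes called in muscle before were under 1 FPKM in both libraries there and were not tested. The log2 difference of Sult5a1 in WAT turned to −0.41. Without a filter, the median log2 difference with HFD over all 57 matching symbols became 0.00 in WAT and in liver. In liver this came with the added symbols outside the 44 members, most of which were at or near 0. It does not describe the members there. The other 74 values of counts stayed within 1.5 times the reported one. Of the 26 differences of named genes, 19 kept direction and 2-fold with a pseudocount of 1 and 7 were under 2-fold. After rescaling all 26 stayed past 2-fold. Leaving out the filter cannot change these differences, because it only decides which genes are tested.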
